A study of Mus musculus with 11 samples.

Results

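The genes described here carry out proton, bicarbonate and ammonia transport in the intercalated cell of the collecting duct. They were chosen by name as 10 genes: the proton pump subunit genes Atp6v1b1, Atp6v0a4, Atp6v0d2 and Atp6v1g3, the ammonia transporter genes Rhcg and Rhbg, the anion exchanger genes Slc4a1 and Slc26a4, the carbonic anhydrase gene Car2 and the transcription factor gene Foxi1. Of these 10, 9 were read among the 18193 genes named on the array, and Atp6v1g3 was not named by the annotation used and has no value. RNA of mouse kidneys, labelled embryonic day 17, was measured on 11 Affymetrix arrays, 1 array a sample. Groups are named here by the start of the array title: 3 Robo2 homozygous arrays (E17R2MU2, E17R2MU8 and E17R2MU9) and 3 wild-type arrays (E17R2WT1, E17R2WT3 and E17R2WT7) in the title series E17R2, 1 Robo2 homozygous array (R2E17-6) and 1 wild-type array (R2E17-3) in the title series R2E17, and 3 arrays labelled Robo2 homozygous and titled R2NB (R2NB-3, R2NB-4 and R2NB-5). Robo2 encodes a receptor for Slit ligands. The labels give no treatment, no strain and no description of the Robo2 allele, do not say what NB stands for, and do not say whether kidneys of several animals were pooled or replicates came from separate animals, so the p-values rest on array-to-array spread that may be technical in part or whole.

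Intercalated cells help to set the acid-base balance of the body. In the acid-secreting type, a vacuolar proton pump in the apical membrane moves protons into the urine, carbonic anhydrase II supplies them, and the anion exchanger AE1 (Slc4a1) returns bicarbonate to the blood, while the base-secreting type uses pendrin (Slc26a4) to release bicarbonate into the urine. Ammonia, the main buffer that carries acid out of the body, crosses the collecting duct through the Rh glycoproteins Rhbg and Rhcg. The forkhead factor Foxi1 is required in mice for these cells to form and to express their pump and exchanger genes.

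Because Foxi1 binds DNA through a forkhead domain, the 250 bases before the start of the member genes were read for 2 six-letter forkhead core words. RefSeq's promoter table (GRCm38.p6) held 6 of the 10 genes, and 4 of the genes measured here are printed 5′ to 3′ in gene orientation, as the pump, transporter and regulator genes that the results turn on. Capitals mark TGTTTA or TGTTTG on either strand. The windows are chr6:83742767-83743016 (plus strand) for Atp6v1b1, chr6:38124587-38124836 (minus strand) for Atp6v0a4, chr7:79617658-79617907 (minus strand) for Rhcg and chr11:34208090-34208339 (minus strand) for Foxi1.
Atp6v1b1: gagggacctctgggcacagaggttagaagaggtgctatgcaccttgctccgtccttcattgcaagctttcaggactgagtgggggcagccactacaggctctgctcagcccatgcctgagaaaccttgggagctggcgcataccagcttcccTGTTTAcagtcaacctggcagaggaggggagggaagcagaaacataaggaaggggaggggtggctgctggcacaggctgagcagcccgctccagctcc
Atp6v0a4: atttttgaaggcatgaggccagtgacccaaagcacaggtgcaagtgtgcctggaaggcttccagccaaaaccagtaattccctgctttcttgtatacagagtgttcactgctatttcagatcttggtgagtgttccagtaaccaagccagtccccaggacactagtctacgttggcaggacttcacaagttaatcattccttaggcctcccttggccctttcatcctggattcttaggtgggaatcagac
Rhcg: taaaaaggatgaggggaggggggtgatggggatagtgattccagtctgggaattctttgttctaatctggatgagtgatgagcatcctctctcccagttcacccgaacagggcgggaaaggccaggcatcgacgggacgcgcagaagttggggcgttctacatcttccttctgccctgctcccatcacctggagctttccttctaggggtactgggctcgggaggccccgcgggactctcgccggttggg
Foxi1: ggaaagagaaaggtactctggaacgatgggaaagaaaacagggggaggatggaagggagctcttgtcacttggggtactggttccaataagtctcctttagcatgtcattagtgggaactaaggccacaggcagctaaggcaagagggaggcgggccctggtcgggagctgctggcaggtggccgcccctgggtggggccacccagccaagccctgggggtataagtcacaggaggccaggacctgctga
Atp6v1b1 held TGTTTA on the gene's strand, beginning 98 bases before the start site (-98). The words did not occur in the windows of Atp6v0a4, Rhcg, Foxi1 and Slc26a4, and Atp6v1g3 held TGTTTG on the opposite strand (-66). Of 27025 promoter windows of the same length, 12.0% held TGTTTA, 16.1% held TGTTTG and 25.4% held either word, so a match in 2 of 6 windows is a description of these letters and not a binding site.

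Values are log2 of the deposited RMA intensity. The 5 R2E17 and R2NB arrays had median intensities of 46.8 to 53.2 and the 6 E17R2 arrays 23.4 to 24.5, so a level of one set cannot be read against a level of the other without scaling. Free-text labels speak of human brain, against the organism and tissue labels. The thick ascending limb gene Umod ranked at percentiles 56.5 to 98.4 of its array and the neuronal gene Neurod6 at 0.011 to 0.781. Robo2, read by 1 dim probe set, was at 2.24 ± 0.19 in E17R2 homozygous and 3.32 ± 0.31 in E17R2 wild-type arrays (SD, n = 3 each), with a limma adjusted p of 0.840. In the other set it was at 3.37 in R2E17-6, labelled homozygous, against 3.96 in R2E17-3, labelled wild-type. The R2NB arrays, labelled homozygous, read 3.28, 3.86 and 3.99 in R2NB-3, R2NB-4 and R2NB-5, so R2NB-4 was close to the wild-type array and R2NB-5 just above it, against their label. Whether this probe set lies in the altered part of the gene is not given, and results that use the R2NB arrays rest on their label. E17R2MU9 stood apart in smooth muscle transcripts. R2E17-6 had a 3′ minus 5′ log2 value of 0.079 for Gapdh, a sign of RNA quality, against 0.70 on R2E17-3, the highest of the 11 arrays. R2NB-4 stood apart in adrenal and liver markers, whose mean log2 intensities were 9.83 and 12.59 there, against at most 5.94 and 9.18 on the other R2E17 and R2NB arrays.

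The first comparison asked whether Robo2 homozygous kidneys differ from wild-type kidneys in these genes within the E17R2 arrays. All 9 measured genes had the lower mean in homozygous kidneys, by 0.35 to 0.83 on the log2 scale. On the deposited values 5 of them were lower on every homozygous array than on any wild-type array. These were the 3 pump subunit genes, Rhcg and Foxi1. Of all 18193 genes, 7.24% had homozygous arrays entirely below wild-type arrays in this way, and 52.9% had the lower mean. Homozygous arrays lay entirely above wild-type arrays for 0 of 9 members, against 5.05% of all genes. With limma and Benjamini-Hochberg adjustment over all genes, 0 of 9 members and 0.0% of all genes passed an adjusted p of 0.05. At an unadjusted limma p under 0.05, 4 of 9 members were lower (Atp6v1b1, Atp6v0a4, Atp6v0d2 and Rhcg), against 3.08% of all genes (560), and 0 of 9 were higher, against 2.52% (459). In a tissue sample, fewer intercalated cells and less RNA in each cell cannot be told apart.

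The 3 measured proton pump subunit genes differed by similar amounts. Atp6v1b1 encodes the B1 subunit of the pump's catalytic head, whose loss in humans causes distal renal tubular acidosis with deafness. Its log2 intensity was 6.92 in E17R2MU2, 6.90 in E17R2MU8 and 6.23 in E17R2MU9, against 7.17 in E17R2WT1, 7.11 in E17R2WT3 and 7.25 in E17R2WT7. The 2 groups did not overlap, E17R2MU9 was the lowest array, and the difference was -0.49 ± 0.19 (SE, n = 3 each, limma adjusted p = 0.840). Atp6v0a4, the a4 subunit of the membrane sector, read 4.43, 4.35 and 3.89 in the homozygous arrays E17R2MU2, E17R2MU8 and E17R2MU9, against 4.84, 4.49 and 4.80 in the wild-type arrays E17R2WT1, E17R2WT3 and E17R2WT7. These groups did not overlap either, though E17R2WT3 was close to E17R2MU2, and the difference was -0.49 ± 0.17 (SE, n = 3 each, limma adjusted p = 0.840). This probe set was dim, at percentiles 24.6 to 35.5 of the E17R2 arrays. Atp6v0d2, the d2 subunit of the stalk that joins both sectors, read 6.43, 6.75 and 5.96 in homozygous arrays in the same order, against 7.06, 6.87 and 7.01 in wild-type arrays. The homozygous values spread over more than the wild-type ones, with SDs of 0.40 and 0.10, and the difference was -0.60 ± 0.20 (SE, n = 3 each, limma adjusted p = 0.840). A second, dimmer Atp6v0d2 probe set gave -0.23 ± 0.20, and there the groups overlapped.

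Of the ammonia transporter genes, Rhcg had genotypes that lay apart and Rhbg had genotypes that overlapped. Rhcg, which moves ammonia across the apical and basolateral membranes, read 6.70, 6.70 and 6.15 in E17R2MU2, E17R2MU8 and E17R2MU9, against 7.05, 7.05 and 7.15 in E17R2WT1, E17R2WT3 and E17R2WT7. Its wild-type arrays were close to each other and E17R2MU9 was the lowest array, and the difference was -0.57 ± 0.16 (SE, n = 3 each), with an unadjusted limma p of 0.0104 and an adjusted p of 0.840. Rhbg, the basolateral ammonia transporter, read 6.63, 6.83 and 5.90 in the homozygous arrays, against 6.76, 6.85 and 6.80 in the wild-type arrays. Here E17R2MU8 lay among the wild-type values, and the difference of -0.35 ± 0.23 (SE, n = 3 each, limma adjusted p = 0.843) was -0.073 ± 0.093 without E17R2MU9.

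The exchangers, carbonic anhydrase and Foxi1 had overlapping or nearly overlapping groups. Slc26a4 (pendrin) read 4.87, 4.88 and 4.24 in homozygous arrays, against 5.22, 4.75 and 5.23 in wild-type arrays, so E17R2WT3 lay below 2 of the homozygous arrays. Its difference was -0.40 ± 0.22 (SE, n = 3 each, limma adjusted p = 0.840). Car2 encodes carbonic anhydrase II, which is also abundant outside intercalated cells. It read 9.41, 9.15 and 8.73 in homozygous arrays, against 9.22, 9.70 and 10.37 in wild-type arrays, and the difference was -0.66 ± 0.31 (SE, n = 3 each, limma adjusted p = 0.840). It was -0.36 without E17R2WT7, the array with the highest value. Foxi1 read 6.34, 6.28 and 5.33 in homozygous arrays, against 6.36, 6.37 and 6.62 in wild-type arrays. E17R2MU2 thus lay just under the lowest wild-type array and E17R2MU9 far below it, for a difference of -0.47 ± 0.27 (SE, n = 3 each, limma adjusted p = 0.840). After quantile normalization over the 11 arrays the Foxi1 groups overlapped, with E17R2MU2 at 6.89 and E17R2WT3 at 6.86.

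**Figure D1:**
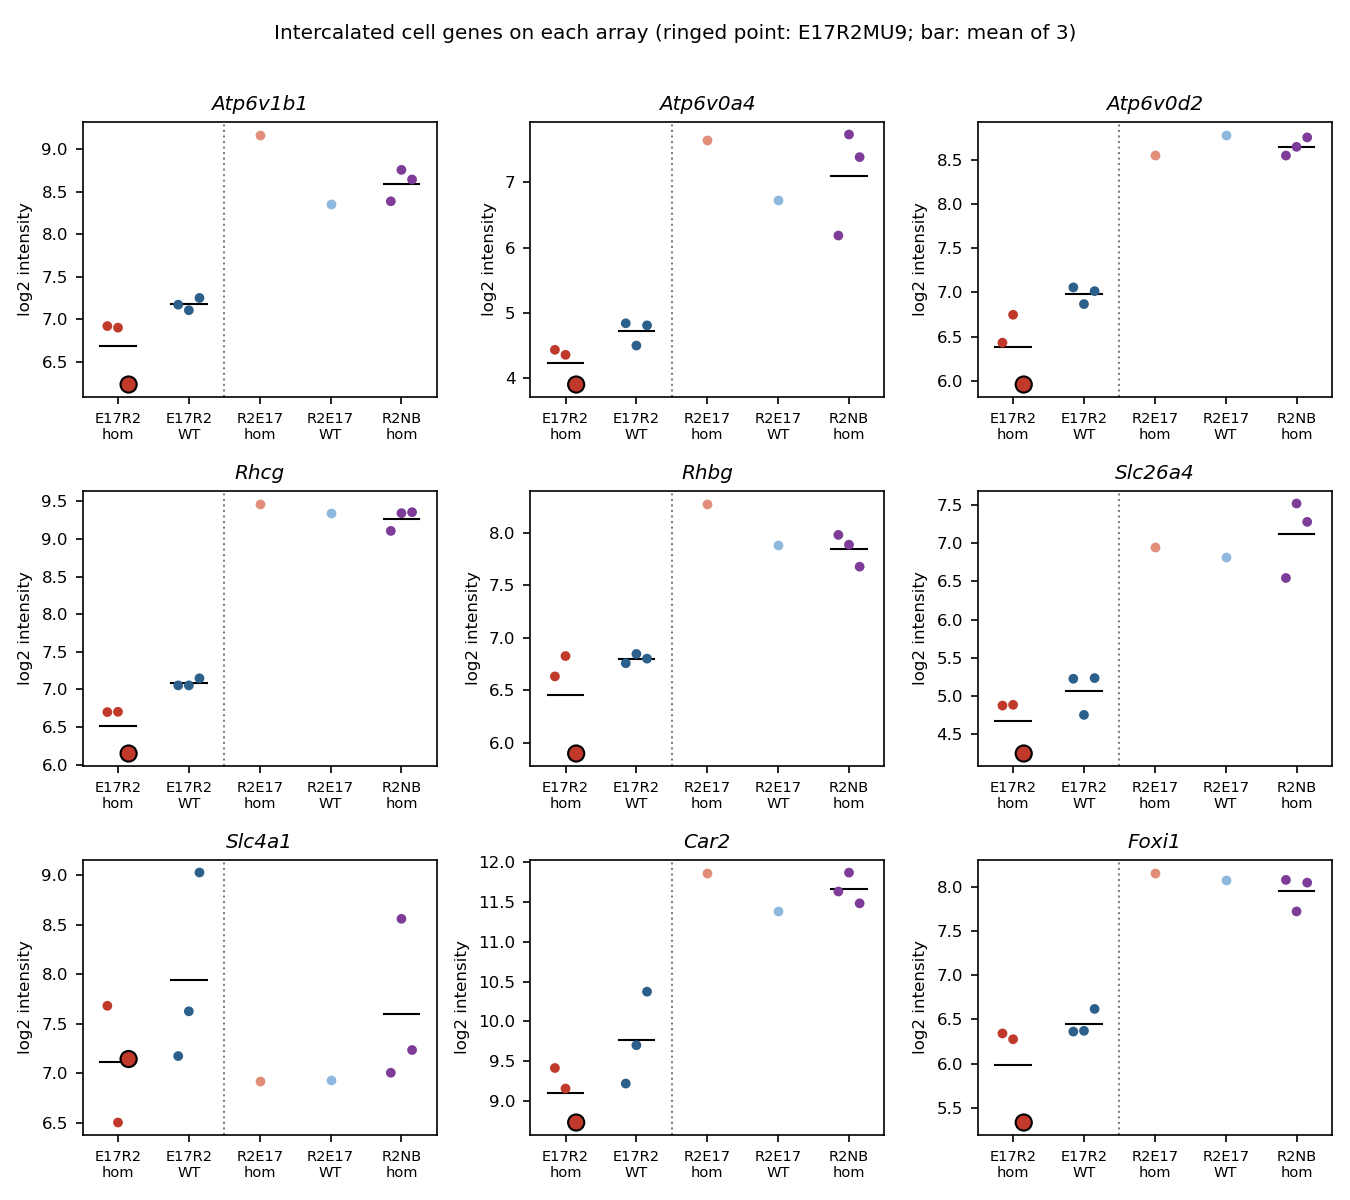
Log2 intensity (vertical axis) of the 9 measured intercalated cell genes on each of the 11 arrays, by genotype and title series (horizontal axis), with bars at group means of 3 arrays and a ringed point for E17R2MU9. The 2 sets left and right of the dotted line have different scales, and E17R2MU9 is the lowest E17R2 array for 8 of the 9 genes, all but Slc4a1.

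E17R2MU9 was the lowest of the 6 arrays for 8 of 9 members, against 32.3% of all genes. For these 8 it lay 0.69 to 1.06 below the mean of the other 5 arrays, and for Slc4a1 0.46 below. Its smooth muscle marker list (10 of 10 genes measured) averaged 2.97 above the mean of the 6 arrays on the log2 scale. All 10 of these markers had the higher mean in homozygous kidneys (median 0.91, and -0.26 without E17R2MU9). Over the 6 arrays the mean log2 intensity of that list was 7.05 to 11.04 in homozygous and 7.57 to 7.68 in wild-type arrays. Actg2, the enteric smooth muscle actin gene, was at 12.76 in E17R2MU9. Other kidney genes were low on that array too: its principal cell list (11 genes) was at -0.53 and its kidney marker list (12 genes) at -0.68 relative to the mean of the 6 arrays, beside -0.66 for the members. Without E17R2MU9 the 9 members still had the lower mean in homozygous kidneys, with a median difference of -0.32 in place of -0.49, against 0.00 for all genes. The lower mean was shared by 49.6% of all genes there. The 5 genes without overlap keep that by construction when a homozygous array is left out. No other member joined them, and 10.6% of all genes were without overlap in this direction. At an unadjusted limma p under 0.05, 4 of 9 members were lower, against 2.91% of all genes. The differences without that array were -0.27 ± 0.083 for Atp6v1b1, -0.32 ± 0.13 for Atp6v0a4, -0.39 ± 0.12 for Atp6v0d2 and -0.38 ± 0.079 for Rhcg (SE, 2 against 3 arrays, limma adjusted p = 0.819 to 0.852). For Foxi1 the difference was -0.14 ± 0.11 and for Slc26a4 -0.19 ± 0.17, both nearer to 0 than with all arrays.

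**Figure D2:**
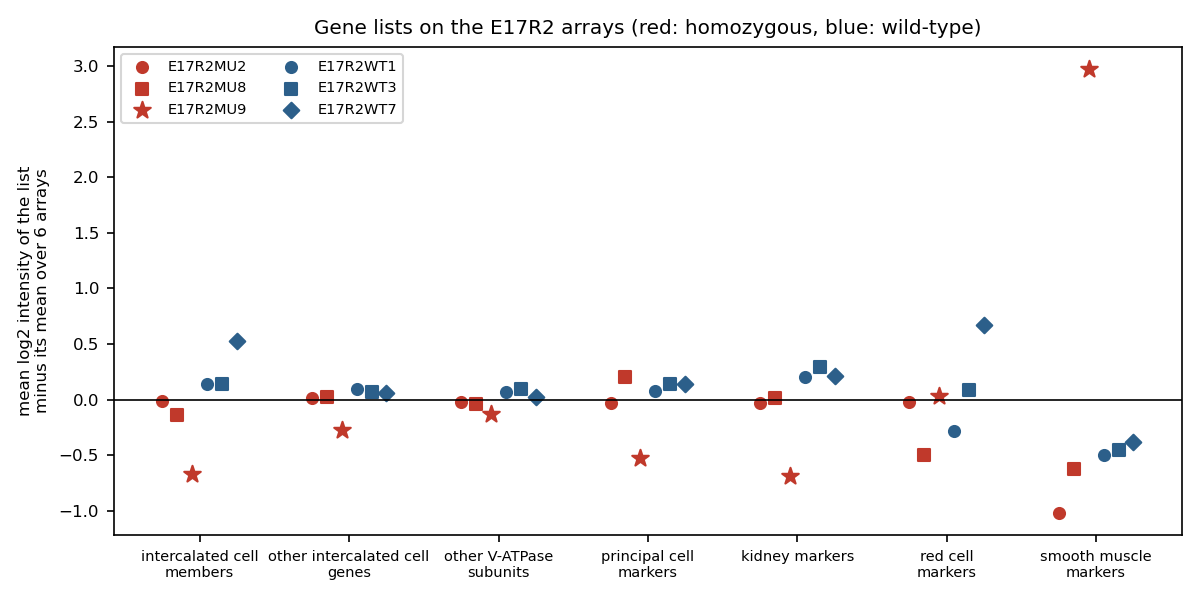
Mean log2 intensity of 7 gene lists on each of the 6 E17R2 arrays, as the difference from the list's mean over these arrays (vertical axis), for homozygous (red) and wild-type (blue) arrays. E17R2MU9 (star) is at 2.97 for smooth muscle markers and at -0.66 for the intercalated cell genes.

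Further genes of the pathway were read from lists chosen by role. Of 21 other vacuolar proton pump subunit and accessory genes, 20 were measured, 17 had the lower mean in E17R2 homozygous kidneys and 0 passed the test in either direction, with a median difference of -0.14. Every homozygous array lay below every wild-type array for 8 of these 20, against 7.24% of all genes. The examples with the smallest p were Atp6v1e1, a stalk subunit (-0.25 ± 0.09, SE), and Atp6v1a, the catalytic subunit (-0.25 ± 0.10). The intercalated cell subunits have close relatives that serve the pump in most cells, named here after their values had been seen. Atp6v1b2, the relative of Atp6v1b1, differed by -0.31 ± 0.15. Atp6v0d1, the relative of Atp6v0d2, differed by -0.07 ± 0.08, and Atp6v0a1, the relative of Atp6v0a4, by -0.10 ± 0.09 (SE, n = 3 each). Whether the members differ from their relatives in this was not tested.

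Of 24 other genes used in intercalated cells, 23 were measured, 17 had the lower mean and 0 passed, with a median of -0.17. Among them, Atp12a, which encodes a potassium-exchanging proton pump, read 4.56, 4.88 and 4.45 in E17R2MU2, E17R2MU8 and E17R2MU9, against 4.98, 5.48 and 5.14 in E17R2WT1, E17R2WT3 and E17R2WT7 (difference -0.57 ± 0.17, SE, limma adjusted p = 0.840). The membrane carbonic anhydrase genes Car15 (-0.54 ± 0.23) and Car4 (-0.52 ± 0.25) were the next by p. Principal cells are the other main cell type of the collecting duct. Of their 11 markers, 10 had the lower mean and 0 passed, with a median of -0.24, and the vasopressin-regulated water channel gene Aqp2 differed by -0.63 ± 0.21 (SE). Without E17R2MU9 the medians were -0.09 for the other pump subunits, -0.08 for the other intercalated cell genes and -0.02 for principal cell markers. All 12 measured kidney markers, from podocytes to the distal tubule, also had the lower mean in homozygous kidneys (median -0.42, and -0.16 without E17R2MU9).

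Other tissues were unevenly present on the E17R2 arrays. All 8 adrenal markers had the lower mean in homozygous kidneys (0 of 8 passed), and their mean log2 intensity was 5.03 to 6.94 in homozygous and 5.45 to 8.60 in wild-type arrays. All 5 liver markers also had the lower mean in homozygous kidneys (0 of 5 passed, median -0.31). Their mean log2 intensity was 7.64 to 9.69 in homozygous and 7.87 to 10.68 in wild-type arrays. Atp6v0d2 is also used by osteoclasts and macrophages, and Car2 by osteoclasts. Of 9 markers of those cells 1 had the lower mean, with a median difference of 0.14. The part of these tissues in the differences of the members was not tested.

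In the R2E17 series, with 1 array a genotype and no replicate check, most members lay the other way. On the deposited values the homozygous array was higher for 7 of 9 genes, against 50.8% of all genes. The median difference was 0.13, against 0.01 for all genes. Atp6v1b1 read 9.17 in R2E17-6 and 8.36 in R2E17-3, a difference of 0.81. Atp6v0a4 read 7.65 in R2E17-6 and 6.73 in R2E17-3, a difference of 0.92. These were the 2 members that exceeded 0.5, a difference that 8.0% of all genes passed upward, and 0 of 9 were below -0.5, against 3.7%. Car2 (0.48), Rhbg (0.40), Rhcg (0.13), Slc26a4 (0.12) and Foxi1 (0.08) differed by less. The sign for Foxi1 depended on the scale: after quantile normalization over the 11 arrays it was at 7.48 in R2E17-6 and 7.49 in R2E17-3. On that scale Slc26a4 (6.28 in R2E17-6, 6.26 in R2E17-3) and Rhcg (8.80 and 8.73) were also nearer to level. Atp6v1b1 (8.48 and 7.76) and Atp6v0a4 (6.97 and 6.16) kept their order. The deposited median log2 over genes was 7.52 in R2E17-6 and 7.40 in R2E17-3. Atp6v0d2 was lower, at 8.56 in R2E17-6 and 8.79 in R2E17-3, and Slc4a1 was level at 6.92 and 6.94 in that order. The second, dimmer Atp6v0d2 probe set went the other way, at 6.58 in R2E17-6 and 6.41 in R2E17-3. The other lists gave other medians in this pair: -0.08 for the other intercalated cell genes (13 of 23 below 0), 0.08 for principal cell markers (3 of 11 below 0) and 0.00 for the other pump subunits (9 of 20 below 0). Kidney markers were at -0.19 (8 of 12 below 0), smooth muscle markers at -0.44 (7 of 10 below 0) and red cell markers at 0.12 (7 of 17 below 0). The wild-type array of this pair is the one with the high 3′ to 5′ value, and its part in the result was not tested.

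The difference between both title series was tested with the single arrays assumed to vary like the replicated groups. The genotype difference in R2E17 minus that in E17R2 was 1.30 ± 0.37 for Atp6v1b1 (SE, limma adjusted p = 0.292) and 1.41 ± 0.71 for Atp6v0a4 (adjusted p = 0.526). It was below 0 for 0 of 9 members, against 46.2% of all genes, and 0 of 9 members passed, against 0.0165% of all genes. At an unadjusted p under 0.05, 2 of 9 members were higher (Atp6v1b1 and Rhcg), against 8.57% of all genes, and 0 of 9 were lower, against 2.5%. Without E17R2MU9 the difference between both title series was 1.08 for Atp6v1b1 and 1.24 for Atp6v0a4. For Rhcg it was 0.51 in place of 0.70, and for Foxi1 0.23 in place of 0.55. On the deposited values, Atp6v1b1, Atp6v0a4, Rhcg and Foxi1 were below wild-type on every E17R2 homozygous array and above it on R2E17-6. These were 4 of 9 members, against 4.38% of all genes. After quantile normalization over the 11 arrays Foxi1 met neither condition. It was not above wild-type on R2E17-6, and E17R2MU2 (6.89) lay above E17R2WT3 (6.86).

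**Figure D3:**
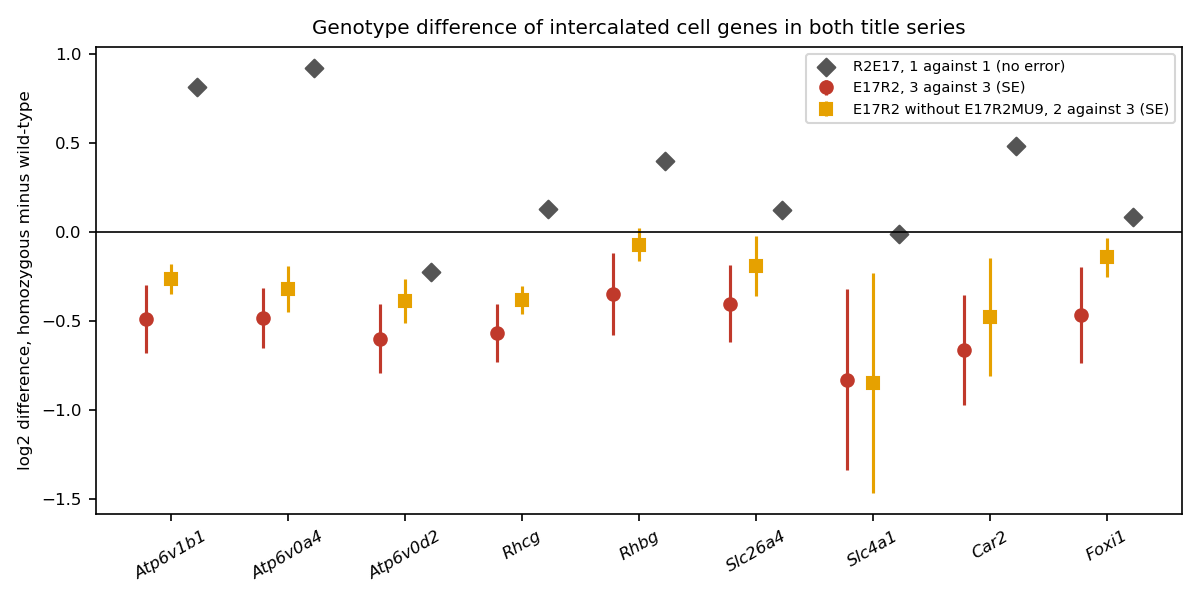
Log2 difference of homozygous minus wild-type (vertical axis) for each member gene, in the E17R2 arrays (circles, SE), in the same arrays without E17R2MU9 (squares, SE) and in the R2E17 pair (diamonds, no error). The E17R2 values lie below 0 for all 9 genes, while the pair lies above 0 for 7 of them.

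Slc4a1 needs its own account, because AE1 is also the main membrane protein of red blood cells. Its log2 intensity was 7.68 in E17R2MU2, 6.51 in E17R2MU8 and 7.15 in E17R2MU9, against 7.18 in E17R2WT1, 7.63 in E17R2WT3 and 9.03 in E17R2WT7. The groups overlapped and the wild-type mean rested on E17R2WT7: the difference was -0.83 ± 0.51 (SE, n = 3 each, limma adjusted p = 0.842) and -0.29 without that array. The mean log2 intensity of 17 red cell markers was 5.21, 4.73 and 5.25 in E17R2MU2, E17R2MU8 and E17R2MU9, against 4.95, 5.31 and 5.90 in E17R2WT1, E17R2WT3 and E17R2WT7. The array with the highest Slc4a1 value thus also had the highest red cell level, and the one with the lowest had the lowest. Of the 17 markers, 10 were highest in E17R2WT7 and 12 were lowest in E17R2MU8. For example, Klf1, an erythroid transcription factor, was at 4.20 in E17R2MU8 and 7.16 in E17R2WT7, and Rhag, the Rh glycoprotein of red cells, was at 2.15 and 4.83 in the same arrays. Of the 22 listed markers 17 were measured and 13 of these had the lower mean in homozygous kidneys, all but Hba-a1, Hbb-b2, Ank1 and Epb42. In limma 0 passed, and the median difference was -0.31.

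Over the 6 E17R2 arrays Slc4a1 followed the red cell marker mean with Pearson r = 0.957 (2-sided exact permutation p = 0.0222) and Spearman rho = 0.714 (exact p = 0.136). Against the mean of the 3 pump subunit genes it had r = 0.419 (exact permutation p = 0.347) and rho = 0.486 (exact p = 0.356). Benjamini-Hochberg adjusted over these 4 coefficients, the smallest p was 0.0889. Without E17R2WT7 and E17R2MU8, the arrays farthest from the median red cell level, r was 0.510, so the relation rests on those arrays. The same check for the pump mean left out E17R2MU9 and E17R2WT7 and gave r = 0.006. Leaving out such arrays narrows the range of levels, which can lower r by itself. Among the R2E17 and R2NB arrays, R2NB-4 had the highest Slc4a1 value (8.56, against 6.92 to 7.24 on the other 4) and the highest red cell mean (5.58, against 5.01 to 5.12). The brighter of the other Slc4a1 probe sets had the same high arrays, with 8.22 in E17R2WT7 and 8.84 in R2NB-4, but carries a suffix for possible cross-hybridisation. For the E17R2 genotype difference the brighter one gave -0.92 ± 0.37 (SE, limma adjusted p = 0.905). The dim one gave 0.06 ± 0.11 (SE, limma adjusted p = 0.962).

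**Figure D4:**
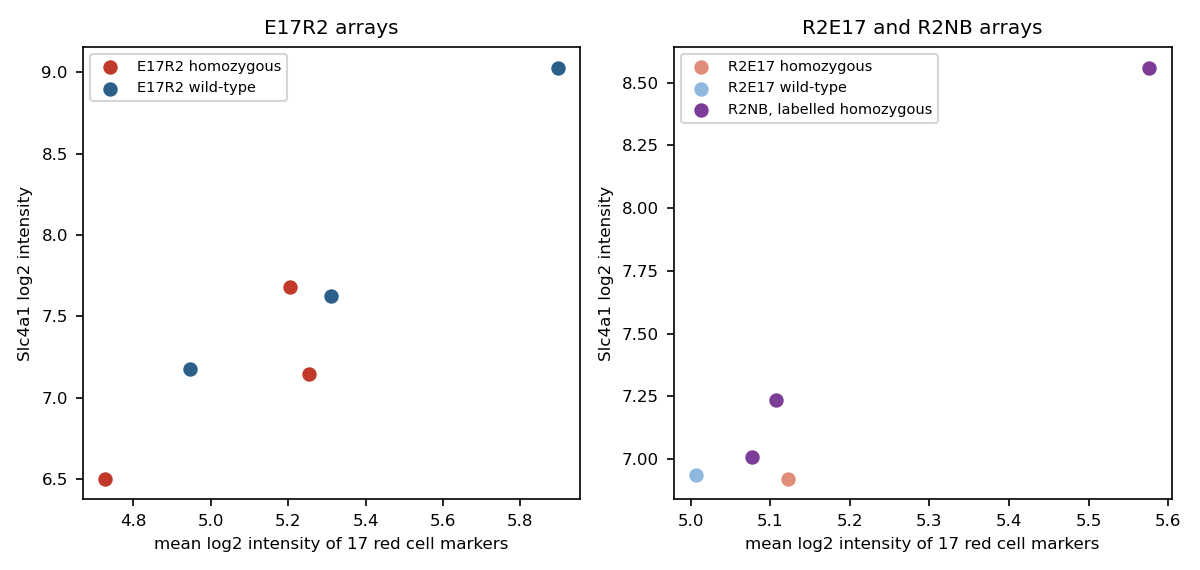
Log2 intensity of Slc4a1 (vertical axis) against the mean log2 intensity of 17 red cell markers (horizontal axis), 1 point an array, with the E17R2 arrays on the left and the R2E17 and R2NB arrays on the right. E17R2WT7 (9.03) and R2NB-4 (8.56) are highest on both axes of their panels.

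The next comparison set the 5 R2E17 and R2NB arrays against the 6 E17R2 arrays, after quantile normalization over all 11 arrays and with genotype as a term. Most intercalated cell genes had higher values in the R2E17 and R2NB arrays. With limma and Benjamini-Hochberg adjustment, 7 of 9 members were higher, against 24.2% of all genes, and 1 of 9, Slc4a1, was lower, against 26.1%. The difference was below 0 for 1 of 9 members, against 52.6% of all genes. In either direction 8 of 9 members and 50.3% of all genes passed, and the array sets appear to have been normalized apart, so scaling, sample collection and any other property of the sets cannot be told apart.

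Rhcg had the most marked separation. On the quantile-normalized scale it read 8.43 to 8.80 in the 5 R2E17 and R2NB arrays, against 6.73 to 7.69 in the 6 E17R2 arrays. The difference was 1.44 ± 0.13 (SE), which is 2.72 times the level, with a limma adjusted p of 1.7e-05. Atp6v0a4 differed by 1.66 ± 0.29 (3.16 times, limma adjusted p = 9.93e-04) but was uneven in the first set, with normalized values of 5.61 in R2NB-3 and 7.08 in R2NB-4. Car2 differed by 1.17 ± 0.24 (adjusted p = 0.0022), Slc26a4 by 1.12 ± 0.22 (adjusted p = 0.0020) and Atp6v0d2 by 0.92 ± 0.13 (adjusted p = 3.31e-04) in limma. Foxi1 (0.73 ± 0.19, limma adjusted p = 0.0091) and Atp6v1b1 (0.59 ± 0.19, adjusted p = 0.0239) were nearer to the spread. Rhbg differed by 0.17 ± 0.17 (limma adjusted p = 0.413) and did not pass. Without overlap between the sets were Rhcg, Atp6v0a4, Atp6v0d2 and Slc26a4, 4 of 9 members, against 17.1% of all genes.

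The R2E17 arrays and the R2NB arrays were also set alone against the E17R2 arrays, which both contrasts share. With genotype as a term, the R2NB arrays, all labelled homozygous, are in effect set against the 3 homozygous E17R2 arrays. For R2E17 minus E17R2, 5 of 9 members passed upward (14.7% of all genes) and 1 of 9, Slc4a1, downward (14.1%), with Rhcg at 1.43 ± 0.18 and Atp6v0a4 at 1.62 ± 0.30, while Atp6v1b1 was at 0.65 with a limma adjusted p of 0.109. For R2NB minus E17R2 homozygous, 7 of 9 passed upward (18.8% of all genes) and 0 of 9 downward (20.3%), with Rhcg at 1.54 ± 0.15 and Atp6v0a4 at 1.81 ± 0.34. Foxi1 was at 0.74 ± 0.27 (limma adjusted p = 0.0775) and 0.77 ± 0.26 (adjusted p = 0.0451) in these contrasts. E17R2MU9 moved the values of the weaker genes: without it, Atp6v1b1 differed by 0.42 (limma adjusted p = 0.0533), Foxi1 by 0.50 (adjusted p = 0.0027) and Rhbg by -0.018. Slc4a1 differed by -1.27 ± 0.45 (limma adjusted p = 0.0351) with all arrays. With all named probe sets tested, its brighter other probe set gave -0.72 ± 0.42 (limma adjusted p = 0.186) and did not pass. The dim one gave -0.60 ± 0.07 (limma adjusted p = 9.04e-05). Of 17 red cell markers, 9 were lower, against 26.1% of all genes, and 0 were higher, against 24.2%. Among the lower ones was the embryonic globin gene Hbb-y (-4.93 ± 0.32). The Slc4a1 call was lost under 9 of 18 alternatives (limma adjusted p = 0.0543 to 0.332), among them leaving out R2E17-3 (-0.90), R2E17-6 (-1.19), R2NB-3 (-1.21), R2NB-5 (-1.26), E17R2MU2 (-1.16) or E17R2MU9 (-1.32).

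**Figure D5:**
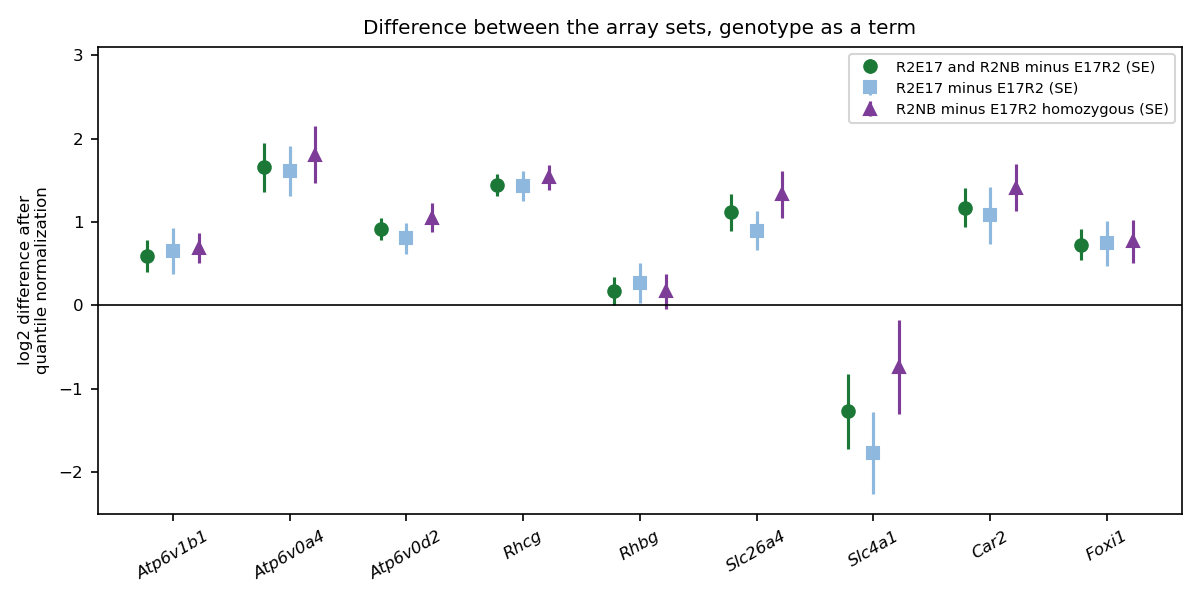
Log2 difference (vertical axis, SE) of the R2E17 and R2NB arrays together and of R2E17 minus the E17R2 arrays, and of R2NB minus the homozygous E17R2 arrays, after quantile normalization with genotype as a term. Rhcg and Atp6v0a4 lie between 1.43 and 1.81 in all 3, while Slc4a1 lies below 0.

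Of the 23 other intercalated cell genes measured, 17 were higher in the R2E17 and R2NB arrays (24.2% of all genes) and 4 lower (26.1%) at a limma adjusted p of 0.05, with a median of 0.68. The largest differences among them belonged to Oxgr1, the receptor for oxoglutarate (2.70 ± 0.18, SE), Atp12a (2.59 ± 0.46) and Car15 (2.23 ± 0.22). Hmx2, a homeobox gene, differed by 2.07 ± 0.14, and Slc4a9, an anion exchanger of base-secreting cells, by 1.18 ± 0.22. Lower were the bicarbonate transporter genes Slc4a8 (-0.89 ± 0.16) and Slc26a7 (-0.81 ± 0.19), the potassium channel gene Kcnma1 (-0.65 ± 0.14) and the Notch ligand gene Jag1 (-0.21 ± 0.06). Of the 20 other pump subunit and accessory genes, 9 were higher (24.2% of all genes) and 2 lower (26.1%), with a median of 0.23. In either direction 11 of 20 were called, near the 50.3% of all genes, but more of them were higher than lower. Of the close relatives, Atp6v0d1 differed by 0.16 ± 0.06 and did not pass, Atp6v0a1 differed by 0.29 ± 0.08, and Atp6v1b2 differed by 0.71 ± 0.11. Of the 11 principal cell markers, 8 were higher (24.2% of all genes) and 1, Hsd11b2, was lower (26.1%), with Aqp2 at 1.89 ± 0.23 and the median at 1.06. Higher values were not confined to the collecting duct lists. Of the 12 kidney markers measured, 7 were higher and 0 lower, with a median of 0.54.

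Within the set of 5 arrays, the R2NB arrays were set against R2E17-6, the array with the same genotype label, which was assumed to vary like the replicated groups. Of 9 members 0 passed in either direction, against 0.011% of all genes, and 6 had the lower mean in the R2NB arrays, against 51.3% of all genes. At an unadjusted limma p under 0.05, 0 of 9 were lower, against 1.92% of all genes, and 0 of 9 were higher, against 1.21%. Atp6v1b1 read 8.39, 8.76 and 8.64 in R2NB-3, R2NB-4 and R2NB-5, against 9.17 in R2E17-6, a difference of -0.58 ± 0.26 (SE, limma adjusted p = 1.0). All R2NB arrays were below R2E17-6 here, and above the wild-type array R2E17-3 (8.36). Atp6v0a4 read 6.18, 7.74 and 7.39 in R2NB-3, R2NB-4 and R2NB-5, against 7.65 in R2E17-6, so the R2NB arrays lay on both sides of it. Rhbg was at 7.98, 7.89 and 7.68, against 8.28 in R2E17-6 (-0.43 ± 0.30), and Foxi1 at 8.08, 7.72 and 8.05, against 8.17 (-0.21 ± 0.35). Slc26a4 varied more, with 6.55, 7.52 and 7.28 in the R2NB arrays, against 6.95 in R2E17-6. Rhcg was at 9.11, 9.34 and 9.36 in R2NB-3, R2NB-4 and R2NB-5, against 9.47 in R2E17-6 (-0.20 ± 0.22). Car2 was at 11.63, 11.87 and 11.48, against 11.87 (-0.21 ± 0.40), and Atp6v0d2 at 8.55, 8.65 and 8.75, against 8.56 (0.09 ± 0.25), where the R2NB arrays lay on both sides of R2E17-6. Slc4a1 was at 7.01, 8.56 and 7.24 in the R2NB arrays, against 6.92 in R2E17-6 (0.68 ± 0.79), with R2NB-4 again the array with the highest red cell, adrenal and liver levels.

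The members did not all vary together across arrays. Over the 11 arrays, after each array set's mean had been taken off, Rhcg had a Pearson correlation of 0.905 with the mean of Atp6v1b1, Atp6v0a4 and Atp6v0d2, rank 15 of 9094 brighter genes. Rhbg (0.690), Car2 (0.658) and Foxi1 (0.649) were lower in that order, and Slc4a1 was at 0.417. Foxi1 had 0.931 within the 6 E17R2 arrays but -0.271 within the other 5. The 5 genes most like the pump mean were Nus1 (0.940), Bola2 (0.939), the urate transporter gene Slc22a12 (0.931), Mcrip2 (0.926) and Eaf2 (0.922). None of these 5 is on the intercalated cell lists. These correlations are descriptions, since all genes share the arrays and E17R2MU9 is the lowest E17R2 array for each of the 5.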

How the data were processed

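RNA of 11 mouse kidney samples was measured on 11 arrays. The deposited values are linear intensities per probe set, made by the authors with RMA per the submitters' processing notes, with the version not given in the sources used here. The 2 array sets have different distributions, so they appear to have been normalized apart. Of 45101 probe sets, 64 are controls, 34945 have 1 gene symbol in the platform annotation, 932 have several and 9160 are unnamed here, and 34741 identifiers matched RefSeq's gene table (GRCm38.p6). Where a gene had several probe sets, the brightest by mean log2 over the 11 arrays stood for it (18193 genes). No filter on dim genes was used. Homozygous and wild-type E17R2 arrays were compared by a 2-sided moderated test (limma 3.58.1 under R 4.3.3). Adjustment followed Benjamini-Hochberg across all 18193 genes, and an adjusted p below 0.05 was called. The array sets were compared on log2 values quantile-normalized over 11 arrays, with genotype as a term. The R2NB and interaction contrasts used a model with 1 coefficient a group on all 11 arrays. Correlations used exact permutation in scipy 1.17.1. The limma scripts were tested on simulated data. The members and gene lists were chosen with earlier results of these data known. All 10 members are named. From the other lists, genes are named that passed the test or have one of the 4 smallest p, and genes of highest mean in lists of other tissues. Likeness took the 5 genes with the highest correlation among genes above the median level. The number of arrays limits the precision. Alternatives changed the normalization, the probe sets, the filter, the eBayes settings and the arrays included.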

Additional observations from a re-analysis of the deposited data

Results flagged for a closer look

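For 4 members the genotype difference had opposite signs in both title series: every E17R2 homozygous array lay below every E17R2 wild-type array, and R2E17-6 (homozygous) lay above R2E17-3 (wild-type). On the deposited values this held for 4.38% of all genes. Foxi1 was nearly level in the R2E17 pair (0.08), and its order was reversed after quantile normalization over the 11 arrays (7.48 in R2E17-6, 7.49 in R2E17-3). On that scale its E17R2 groups overlapped as well (6.89 in E17R2MU2, 6.86 in E17R2WT3). Without E17R2MU9 the difference between the title series was 0.23 for Foxi1 and 0.51 for Rhcg, smaller than with all arrays. The genotype difference in R2E17 minus that in E17R2 was 1.30 on the log2 scale for Atp6v1b1 (limma adjusted p = 0.292) and 1.41 for Atp6v0a4 (adjusted p = 0.526). It was 0.70 for Rhcg (limma adjusted p = 0.447) and 0.55 for Foxi1 (adjusted p = 0.775). None of the 4 passed the threshold, and the R2E17 side rests on 1 array a genotype.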

How the results depend on the processing

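The 9 members had the lower mean in E17R2 homozygous kidneys, with 0 of them called, under every normalization, array and eBayes alternative run, while the filter on dim genes left out Atp6v0a4, Slc26a4 and Foxi1. Without E17R2WT7, 1 gene was called in the E17R2 comparison, and leaving out each array in turn gave 0 to 1. For the R2E17 and R2NB arrays against the E17R2 arrays, 16797 probe sets were called with all named probe sets, 4745 genes with genes above the median only and 5243 without the R2NB arrays, against 9159, and 7950 to 9178 when 1 array was left out, with 6 to 8 members called. In the same contrast Rhbg was at -0.018 without E17R2MU9, and at up to 0.273 when another array was left out. For R2NB minus R2E17 homozygous, 2 genes were called with all arrays, 6 with all named probe sets, and 2 to 17 when 1 array was left out (17 without R2NB-3 and 7 without R2NB-5). There Atp6v0d2 was at -0.023 and Car2 at 0.032 against both R2E17 arrays, and Slc26a4 at -0.033 without R2NB-4 and 0.456 without R2NB-3. For the interaction, 3 genes were called, against 23 with all named probe sets, 6 with genes above the median only, 5 with trend and robust eBayes and 2 to 3 when 1 array was left out. The cause of these shifts was not tested beyond the fewer or more features and arrays that each alternative holds. No paired analysis was possible because the replicate numbers in the titles are not shared by the genotypes within a title series. Dim probe sets, such as those of Atp6v0a4 and Slc26a4, limit how small a difference can be read.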

Other observations

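Atp12a, the potassium-exchanging proton pump gene, was uneven within the set of R2E17 and R2NB arrays. It read 7.05, 9.41 and 9.21 in R2NB-3, R2NB-4 and R2NB-5, against 7.14 in R2E17-6, and R2E17-3, the wild-type array, read 9.14. The arrays with low Atp12a were thus R2NB-3 and R2E17-6, both labelled homozygous, and the other 2 R2NB arrays were as high as the wild-type array. Atp6v0a4 was lowest in R2NB-3 as well (6.18), but not in R2E17-6 (7.65). The difference between these arrays was not tested.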
